A study of Mus musculus with 2 samples.

Results

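The chemokine genes Ccl3, Ccl4 and Ccl5 and the receptor gene Ccr1 were followed through the cell types of the injured mouse kidney. These 4 genes were taken by name from the 32285 genes of both libraries, with earlier results of these data known. One library came from injured kidney of Cre- mice, the control, and the other from injured kidney of Cdh5-CreERT2; Phd3f/+ mice, here called haplodeficient. Both groups had unilateral kidney ischemia and reperfusion, in which the renal artery is clamped and released, then 4 tamoxifen injections, and were analysed on day 14. Tamoxifen switches on CreERT2, which is driven by Cdh5, an endothelial promoter, and removes 1 floxed allele of Phd3 (Egln3). Phd3 encodes prolyl hydroxylase 3, an oxygen-using enzyme of the hypoxia-inducible factor pathway. The labels do not say whether control mice carried a floxed allele, nor how many mice entered a library. Each group was 1 library, so no difference between the groups has a replicate check, and every interval given is a 95% interval that covers counting error only.

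CCL3, CCL4 and CCL5 (MIP-1α, MIP-1β and RANTES) are small secreted CC chemokines, proteins that draw leukocytes along a gradient and are held on glycosaminoglycans of the vessel wall. CCR1 is a G-protein-coupled receptor on myeloid cells that binds CCL3 and CCL5, and other receptors of these ligands outside the lists named here were not analysed here. Activated macrophages and neutrophils are known makers of CCL3 and CCL4, while CCL5 is a late product of cytotoxic lymphocytes, and tubular epithelium can also make it after injury. In the kidney these chemokines are studied for the leukocyte influx that follows ischemia.

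All 3 ligand genes lie on mouse chromosome 11 (GRCm38, GENCODE M21): Ccl3 (ENSMUSG00000000982) at chr11:83647844-83649355 on the minus strand, Ccl4 (ENSMUSG00000018930) at chr11:83662584-83664683 on the plus strand and Ccl5 (ENSMUSG00000035042) at chr11:83525778-83530518 on the minus strand. Ccl3 and Ccl4 are neighbours, 13228 bases apart. Ccr1 (ENSMUSG00000025804) lies at chr9:123962124-123968692 on the minus strand. All 4 are protein-coding, and no other annotated gene overlaps any of them. The coding sequences of Ccl3 and Ccl5 are shown because they stand for the myeloid and the lymphoid ligand of the results, with the paired cysteine codons that name the CC family in capitals (codons 34 and 35 of Ccl3, codons 33 and 34 of Ccl5, counted from the start codon).
Ccl3: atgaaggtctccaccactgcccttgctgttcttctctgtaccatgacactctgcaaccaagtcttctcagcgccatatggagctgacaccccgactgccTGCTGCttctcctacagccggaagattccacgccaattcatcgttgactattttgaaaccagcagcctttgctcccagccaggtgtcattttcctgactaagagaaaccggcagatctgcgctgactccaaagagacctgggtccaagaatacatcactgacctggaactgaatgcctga
Ccl5: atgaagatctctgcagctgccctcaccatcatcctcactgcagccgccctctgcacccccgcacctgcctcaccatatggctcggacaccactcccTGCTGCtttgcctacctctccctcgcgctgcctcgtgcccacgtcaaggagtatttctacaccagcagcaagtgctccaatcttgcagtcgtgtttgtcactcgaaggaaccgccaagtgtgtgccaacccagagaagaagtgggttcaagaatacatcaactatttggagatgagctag
These coding sequences were 63.1% identical, gaps included. Reads of this assay come from the 3′ end, and over the last 300 bases of both transcripts the identity was 47.0%. The longest run of bases that the whole transcripts shared was 13.

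The control library held 8737 cells and the haplodeficient library 9222 after filters and doublet removal, with a median of 8762 and 5472 UMIs (unique molecular identifiers, tags that each count 1 captured RNA molecule) per cell. The libraries differed widely in make-up. Leukocytes were 15.6% of control and 41.8% of haplodeficient cells, proximal tubule cells numbered 2898 and 282, and the median share of mitochondrial UMIs was 10.2% and 2.69%. Barcodes shared by both libraries (28 among those kept) were left out as a check, and none of the calls given here changed. Egln3, the targeted gene, stood in endothelium at 23.9 CPM (UMIs per 1e6 UMIs of the class; interval 18.1 to 30.9) in 365 control cells and at 20.9 CPM (17.2 to 25.2) in 797 haplodeficient cells, a ratio of 0.876 (0.632 to 1.23), so its level in the targeted cells does not tell the labels apart at this depth. In neutrophils, which the endothelial driver does not target, Egln3 stood at 200 CPM (138 to 281; 33 UMIs) and 69.3 CPM (55.1 to 86.1; 82 UMIs), a ratio of 0.347 (0.229 to 0.536). Cells were grouped by clusters named from marker genes, with the 4 genes and 38 related genes left out of the clustering. Clusters that met no class are called by a leading gene. The Cd83-led cluster held 7 of 10 macrophage markers, but its 5 first leading genes (Ccl12, H2-Eb1, Cd72, H2-Aa and Cd83) included the dendritic cell marker Cd83 and no macrophage marker, and the Klra5-led cluster held 7 of 8 T-cell markers with natural killer (NK) receptor genes in the lead.

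Over all cells, each gene was higher in the haplodeficient library. Ccl3 stood at 27.8 CPM in the control and 111 CPM in the haplodeficient library, a ratio of 4.00 (3.84 to 4.17). Ccl4 stood at 74.1 and 316 CPM (ratio 4.27, 4.16 to 4.38), Ccl5 at 49.5 and 298 CPM (6.01, 5.83 to 6.19) and Ccr1 at 6.12 and 15.9 CPM (2.60, 2.37 to 2.86). Within leukocytes alone the ratios were much smaller for the myeloid pair and the receptor, at 1.44 (1.38 to 1.50) for Ccl3, 1.52 (1.49 to 1.56) for Ccl4 and 0.916 (0.833 to 1.01) for Ccr1. Ccl5 kept a ratio of 4.08 (3.91 to 4.25) there. Leukocyte UMIs were 7.37% of control and 21.0% of haplodeficient UMIs, and how many leukocytes the tissue held cannot be told apart from how many survived dissociation. Free RNA, read from barcodes of 1 to 100 UMIs, carried the genes at like levels: Ccl3 at 24.4 and 132 CPM, Ccl4 at 51.5 and 323 CPM, Ccl5 at 47.3 and 337 CPM, and Ccr1 at 4.87 and 14.5 CPM.

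**Figure D1:**
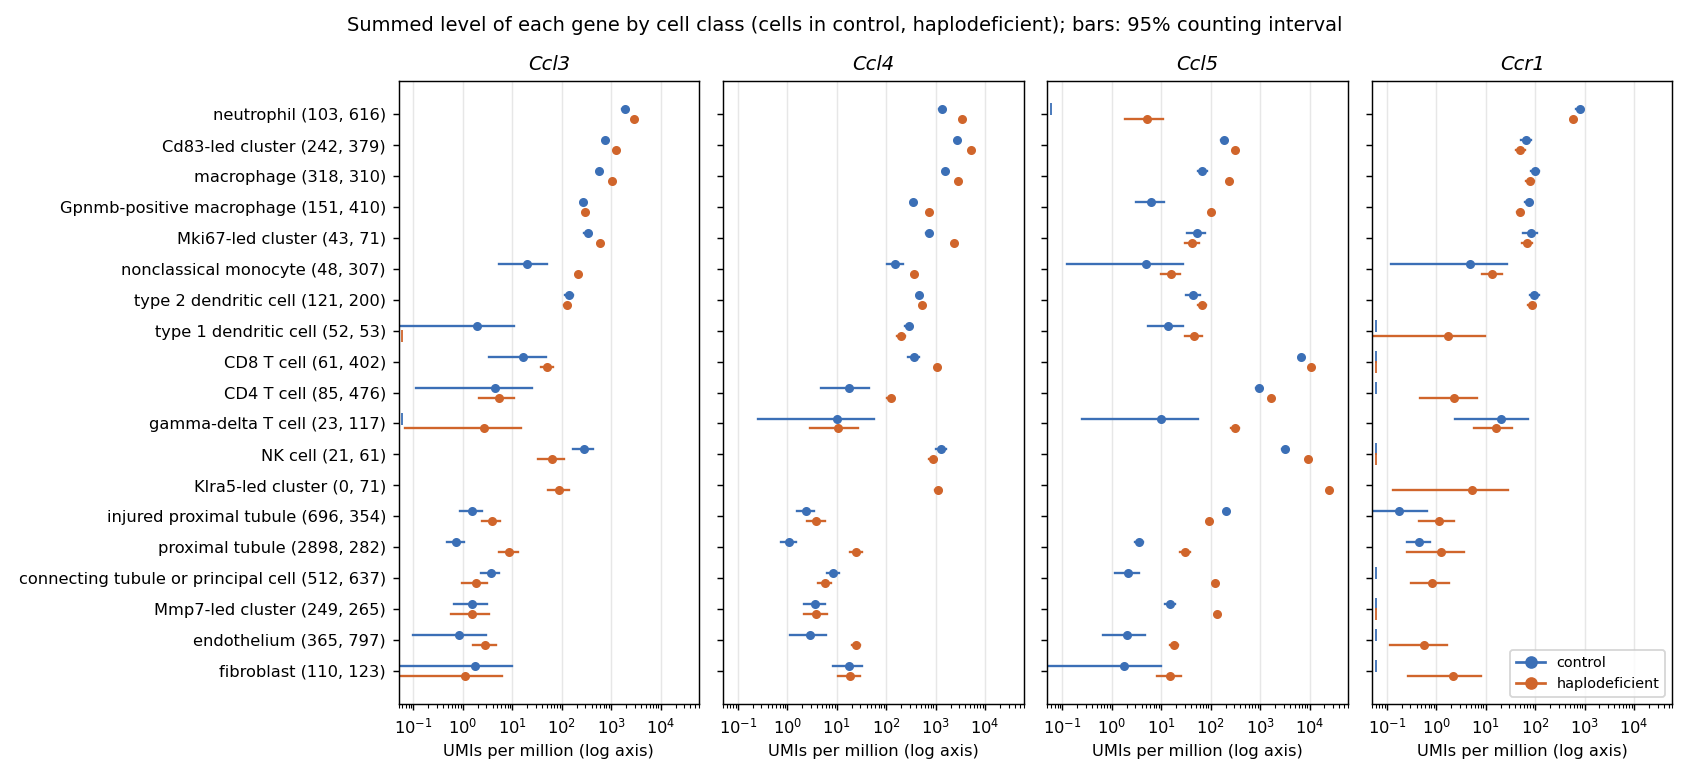
Level of Ccl3, Ccl4, Ccl5 and Ccr1 (CPM, log axis) in 19 cell classes or clusters, with the numbers of control and haplodeficient cells in brackets. Points are summed levels, bars 95% counting intervals, and a short upright tick at the left edge marks 0 UMIs. Ccl3, Ccl4 and Ccr1 are high in myeloid rows and Ccl5 in lymphoid rows.

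The source cells of the ligands differed by gene and by library. Leukocytes held 95.8% of control and 98.2% of haplodeficient Ccl3 UMIs, 96.1% and 97.9% of Ccl4 UMIs and 96.8% and 97.2% of Ccr1 UMIs. Of Ccl5 UMIs, leukocytes held 46.1% in control kidney and 89.3% in haplodeficient kidney. The main control source of Ccl5 was the injured proximal tubule, with 43.4% (42.1 to 44.8) of 5297 UMIs, against 2.06% (1.90 to 2.24) of 27856 in the haplodeficient library, where CD8 T cells held 41.6% (41.0 to 42.2). Neutrophils held 10.4% (9.37 to 11.6) of control and 32.1% (31.2 to 33.0) of haplodeficient Ccl3 UMIs, the largest shift among the myeloid sources of that gene. They were 103 control and 616 haplodeficient cells.

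**Figure D2:**
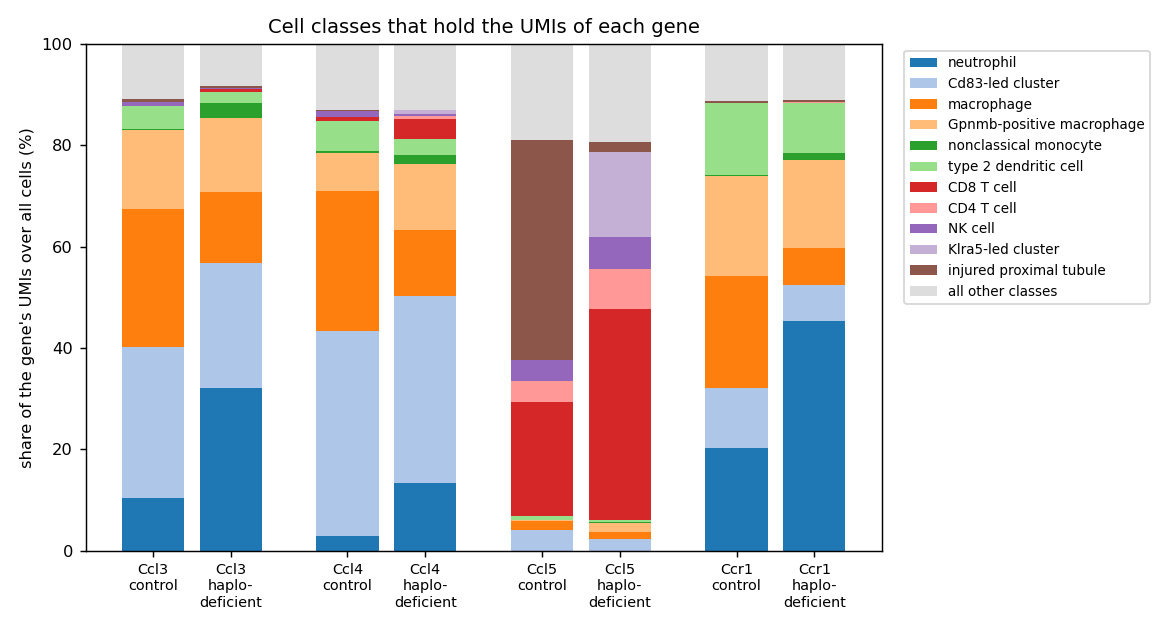
Share of the UMIs of each gene (%) by cell class, 1 bar per gene and library. Injured proximal tubule cells fill 43.4% of the control Ccl5 bar and 2.06% of the haplodeficient one, and neutrophils fill 45.4% of the haplodeficient Ccr1 bar.

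Ccl3, which encodes a ligand of CCR1, was highest in neutrophils of both libraries. Control neutrophils held it at 1884 CPM (1680 to 2105) and haplodeficient neutrophils at 2830 CPM (2735 to 2928), a ratio of 1.50 (1.34 to 1.69). Next came the Cd83-led cluster at 759 and 1228 CPM (ratio 1.62, 1.50 to 1.75) and macrophages at 559 and 1048 CPM (1.87, 1.72 to 2.04). In each library these 3 levels followed one another without overlap of their intervals, so the order neutrophil, Cd83-led cluster, macrophage was the same in both. The dividing Mki67-led leukocyte cluster stood at 334 and 588 CPM and Gpnmb-positive macrophages at 266 and 290 CPM (ratio 1.09, 0.984 to 1.21). In the control, the intervals of these 2, of 21 NK cells (276 CPM) and of 41 shallow cells of the C1qb-led cluster (545 CPM) overlapped in part. Type 2 dendritic cells stood at 140 and 128 CPM (ratio 0.918, 0.738 to 1.15), but with each library clustered on its own their log2 ratio was 2.56, past the size rule.

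A difference was called when the log2 ratio of CPM + 5 reached 1 in size and the 2 counting intervals did not overlap, among genes whose mean over both libraries reached 50 CPM and that had 30 or more UMIs. Ccl3 could be read in this way in 9 classes and was called higher in 1 class, nonclassical monocytes, where 3.49% of all genes tested were called. There it stood at 19.5 CPM, from 4 UMIs in 48 control cells, and 213 CPM in 307 haplodeficient cells, a ratio of 10.9 (4.22 to 40.3). Neutrophil marker genes summed to 180 CPM in control and 1540 CPM in haplodeficient nonclassical monocytes, and their part in this ratio was not tested. Ccl3 was called lower in NK cells (4.05% of genes called), at 276 and 64.1 CPM (ratio 0.232, 0.103 to 0.504), from 19 and 12 UMIs. Of 21 control NK cells, 4 had a Ccl3 UMI, and 3 cells held 94.7% of those UMIs. Among 61 haplodeficient NK cells, 11 had a Ccl3 UMI, so the NK call rests on few control cells. Ccl3 was also called lower in the C1qb-led cluster (545 and 55.3 CPM), where 7.52% of genes were called. That cluster had median depths of 697 and 847 UMIs, its neutrophil markers summed to 28.7 and 685 CPM, and 4 of 7 measurable dissociation genes were called lower (median log2 ratio -1.45). The part of these in its ligand levels was not tested. With each cell thinned to 1000 UMIs, 27.1% (18.5 to 37.1) of 96 control neutrophils and 44.3% (40.2 to 48.5) of 571 haplodeficient neutrophils had a Ccl3 UMI, against 31.1% and 49.0% before thinning at median depths of 1559 and 1775 UMIs. In proximal tubule cells, which should lack the gene, the thinned shares were 0.0365% and 0.376%, at median depths of 10760 and 5288 UMIs.

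Neutrophils fell into 3 clusters whose Ccl3 levels differed more than the libraries did. In the cluster led by Il1f9 (19 control and 108 haplodeficient cells), whose leading genes also included Acod1 and Il1rn, Ccl3 stood at 8143 CPM (7139 to 9249) and 8612 CPM (8208 to 9031). These levels overlap, with a ratio of 1.06 (0.923 to 1.22). In the cluster led by Il1r2 (53 and 382 cells) Ccl3 stood at 882 and 2115 CPM, a ratio of 2.40 (1.89 to 3.08). In the cluster led by Retnlg (31 and 126 cells), a gene of mature circulating neutrophils, it stood at 36.8 CPM, from 2 UMIs, and 381 CPM (ratio 10.4, 2.79 to 86.7). Ccl4 followed the same order of clusters, at 5704 and 7296 CPM in the Il1f9-led cluster (ratio 1.28, 1.09 to 1.51), 502 and 3111 CPM in the Il1r2-led cluster (6.20, 4.55 to 8.66) and 295 and 949 CPM in the Retnlg-led cluster (3.22, 1.94 to 5.73). Within neutrophils a small fraction of cells carried most of the ligand UMIs: the 11 control cells with most Ccl3 held 78.5% of its UMIs, and the 62 haplodeficient cells with most held 61.6%.

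**Figure D3:**
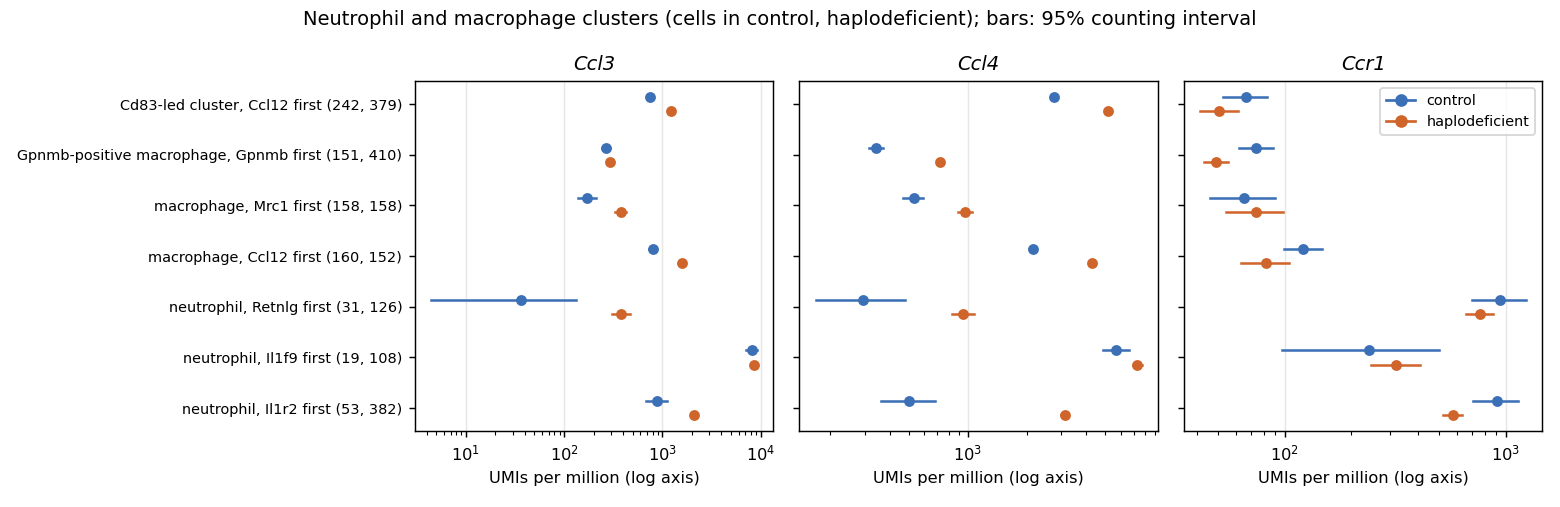
Ccl3, Ccl4 and Ccr1 (CPM, log axis) in the neutrophil, macrophage, Gpnmb-positive macrophage and Cd83-led clusters, each named by its class and first leading gene, with cells per library in brackets and 95% counting intervals as bars. The Il1f9-led neutrophils are highest in Ccl3 and Ccl4 and lowest in Ccr1 among neutrophils.

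Ccl4, which encodes a close relative of CCL3, was spread over more cell types. Among classes of at least 20 cells it was highest in the Cd83-led cluster, at 2741 CPM (2647 to 2838) for the control against 5196 CPM (5099 to 5295), a ratio of 1.90 (1.82 to 1.97). Neutrophils stood at 1351 and 3350 CPM (2.48, 2.17 to 2.85) and macrophages at 1523 and 2797 CPM (1.84, 1.74 to 1.94). The order of these last 2 was reversed between the libraries: their intervals overlapped in the control and were apart in the haplodeficient library. Plasmacytoid dendritic cells were also high, at 2525 CPM in 10 control cells (overlapping the Cd83-led cluster) and 3518 CPM in 15 haplodeficient cells. Ccl4 was called higher in 6 of 12 classes. They were neutrophils (4.93% of genes called), Gpnmb-positive macrophages at 340 and 724 CPM (1.63% called), the Mki67-led cluster at 724 and 2386 CPM (3.46% called), nonclassical monocytes at 151 and 370 CPM, CD8 T cells at 359 and 1073 CPM (4.07% called) and CD4 T cells at 17.8 and 123 CPM (3.84% called), the last from 4 control UMIs. The CD4 T-cell call was lost with doublets kept. With each library clustered on its own it turned to a log2 ratio of -0.52, in a setting where no control cluster was named CD8 T cell. The Gpnmb-positive call of Ccl4 was lost in that setting and at a UMI minimum of 1000. It was called lower in the C1qb-led cluster, at 1004 and 115 CPM, a call lost at a UMI minimum of 1000 like that of Ccl3 there. Without a call, Ccl4 was lower in NK cells, at 1292 and 865 CPM (ratio 0.670, 0.514 to 0.877). There 3 of 21 control cells held 89.9% of the Ccl4 UMIs, and 1 cell held 60 of them. The share of NK cells with a Ccl4 UMI went the other way, at 5 of 21 control and 30 of 61 haplodeficient cells. Ccl4 was also lower without a call in type 1 dendritic cells (283 and 201 CPM, 4.55% called). In type 2 dendritic cells it stood at 469 and 541 CPM (1.62% called), where doublets kept turned the log2 ratio to -0.16.

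The division between macrophages and the Cd83-led cluster (2.23% and 1.23% of genes called) depended on the clustering. With each library clustered on its own, the log2 ratios of Ccl3 and Ccl4 in macrophages turned to -1.30 and -1.35. Both units together kept one direction under every clustering tried: pooled, Ccl3 stood at 648 and 1156 CPM (ratio 1.78, 1.68 to 1.89) and Ccl4 at 2069 and 4239 CPM (2.05, 1.99 to 2.11). In the macrophage cluster led by Ccl12 (160 and 152 cells) Ccl3 stood at 799 and 1593 CPM, and in the one led by Mrc1 (158 and 158 cells) at 172 and 376 CPM, so the ratio was near 2.00 in both (1.99 and 2.18) while the levels were far apart. Of 18 genes known to respond to tissue dissociation, 14 of 16 measurable ones were higher in the haplodeficient Cd83-led cluster (median log2 ratio 0.24) and 10 of 18 in macrophages (0.10), none and 1 past the size rule, while in neutrophils 7 of 15 were higher (-0.08). In other classes with a called ligand the share that was higher varied. It was 12 of 13 in gamma-delta T cells (6 called, median 1.03) and 13 of 14 in CD4 T cells (2 called, 0.59). CD8 T cells had 9 of 13 (2 called, 0.34) and the Mki67-led cluster 13 of 15 (1 called higher and 1 lower, 0.30). Nonclassical monocytes had 8 of 15 (1 called, 0.05), NK cells 5 of 9 (0.02) and Gpnmb-positive macrophages 8 of 15 (0.01). Connecting tubule or principal cells had 9 of 18 (0.01), the injured proximal tubule 6 of 14 (-0.08) and the Mmp7-led cluster 5 of 17 (-0.15). The C1qb-led cluster had 1 of 7 (4 called lower, -1.45). The part of these genes in the ligand levels was not tested. Median mitochondrial shares were lower in the haplodeficient library in the Cd83-led cluster, macrophages and neutrophils (3.48% against 1.76%, 3.64% against 1.96% and 1.37% against 0.398%).

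Ccl3 and Ccl4 were found in the same cells. In the Cd83-led cluster a Ccl4 UMI was present in 94.1% of 153 control cells with Ccl3 and in 64.0% of the others, and in 95.1% of 304 haplodeficient cells with Ccl3 and 69.3% of the others. In neutrophils the shares were 65.6% against 8.45% for the control and 59.3% against 14.3% for haplodeficient cells. Ccr1 behaved differently in neutrophils: it was present in 28.1% of 32 control cells with Ccl3 and 71.8% of those without, and in 52.0% and 65.6% of haplodeficient cells. In macrophages Ccr1 was present in 35.8% of control cells with Ccl3 against 21.0% without it, and in 23.6% against 19.1% of haplodeficient cells. These shares were not thinned to a common depth and describe these cells only.

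Ccl5, which encodes a ligand of CCR1 made late by activated T cells, reached its highest levels in lymphoid cells and migratory dendritic cells. CD8 T cells held it at 6574 CPM (6206 to 6959) in 61 control cells and 10585 CPM (10393 to 10780) in 402 haplodeficient cells, a ratio of 1.61 (1.52 to 1.71). NK cells held it at 3223 and 9424 CPM (ratio 2.92, 2.54 to 3.38), which was called. CD4 T cells stood at 949 and 1667 CPM (1.76, 1.53 to 2.03). With each library clustered on its own their log2 ratio was -1.13, but no control cluster was then named CD8 T cell. The part of this in the turned direction was not tested. The Klra5-led cluster, 71 haplodeficient cells and no control cell, stood at 24279 CPM (23588 to 24985) and held 16.8% of the haplodeficient Ccl5 UMIs. Migratory dendritic cells stood at 3128 CPM in 10 control and 13241 CPM in 14 haplodeficient cells, and dividing T cells at 2438 CPM in 9 and 2286 CPM in 41 cells. The haplodeficient order was thus the Klra5-led cluster, migratory dendritic cells, CD8 T cells and NK cells with no overlap of intervals. In the control CD8 T cells led, and NK cells and migratory dendritic cells overlapped. Of the 14 haplodeficient migratory dendritic cells, 2 held 48.8% of the Ccl5 UMIs, so their place above CD8 T cells rests on few cells. After thinning, 91.7% (81.6 to 97.2) of control CD8 T cells and 98.2% (96.4 to 99.3) of haplodeficient ones had a Ccl5 UMI, with median depths of 2710 and 2485 UMIs. CD8 T cells were 0.698% of control and 4.36% of haplodeficient cells, and their Ccl5 ratio was not past the size rule (log2 0.69).

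Beyond NK cells, Ccl5 was called higher in several other classes, in part from few cells. In macrophages it stood at 68.0 and 240 CPM (ratio 3.53, 2.81 to 4.46) and in Gpnmb-positive macrophages at 6.27 and 103 CPM (16.5, 9.14 to 33.2). Gamma-delta T cells held 1 control UMI and 118 haplodeficient UMIs (10.0 and 313 CPM; ratio 31.2, 5.50 to 1243; 6.14% of genes called). Their neutrophil markers summed to 0 and 660 CPM and 6 of 13 dissociation genes were called higher, and the part of either was not tested. In the C1qb-led cluster there were 0 control and 132 haplodeficient UMIs. Of the 544 Ccl5 UMIs of 410 haplodeficient Gpnmb-positive macrophages, 476 were in 10 cells, whose T-cell markers summed to 457 CPM. These markers stood at 114 CPM in all 47 cells with a Ccl5 UMI and at 7.47 CPM in the rest, against 7137 CPM in CD8 T cells. The part of T-cell RNA in this ratio was not tested. In macrophages the 31 haplodeficient cells with Ccl5 held no T-cell marker UMI, but 3 of them carried 275 of its 334 UMIs. NK markers stood at 45.9 CPM in these 3 cells against 2.39 CPM in cells without Ccl5. With 3 cells at a median depth of 7523 UMIs, that level rests on very few marker UMIs. The macrophage difference lay in the Mrc1-led cluster (132 and 498 CPM), while the Ccl12-led cluster stood at 28.1 and 29.9 CPM. The Gpnmb-positive call was lost at Leiden resolution 2, at a UMI minimum of 1000, at a mitochondrial limit of 25% and with each library clustered on its own.

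In the injured proximal tubule, the epithelium marked by Havcr1 (KIM-1) and Vcam1, Ccl5 went the other way. It stood at 205 CPM (197 to 214) in 696 control cells and 92.7 CPM (85.3 to 101) in 354 haplodeficient cells, a ratio of 0.452 (0.411 to 0.495). It was called lower, where 0.758% of genes tested were called, and was the only one of the 4 genes that could be read in this class. After thinning, 7.78% (5.88 to 10.1) of 681 control cells and 4.26% (2.40 to 6.93) of 352 haplodeficient cells had a Ccl5 UMI, intervals that overlap, at median depths of 12584 and 12320 UMIs (unthinned, 146 of 696 and 39 of 354 cells). In endothelium, taken as the background, the thinned shares were 0.296% and 0.917% at median depths of 4014 and 3910 UMIs. The ratio was 0.648 with doublets kept and 0.519 at a mitochondrial limit of 25%, neither past the size rule, and at a pseudocount of 20 CPM the call was lost as well. Free RNA accounted for an estimated 1.03% of the control and 15.3% of the haplodeficient Ccl5 UMIs of this class.

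Ccl5 in the injured tubule was concentrated in cells with high injury markers. In the control, 146 cells had a Ccl5 UMI, and 54 cells with at least 10 UMIs carried 1990 of 2300. Vcam1, an adhesion molecule of unrepaired tubule, stood at 1511 CPM in control cells with Ccl5 and 549 CPM in those without, and Havcr1 at 1118 and 469 CPM. T-cell markers stood at 15.6 and 14.6 CPM, so they were close in both sets of control cells. In the haplodeficient library 9 cells with at least 10 UMIs carried 502 of 575. Their Vcam1 was 1703 CPM, and their T-cell markers were at 173 CPM against 10.3 CPM in cells without Ccl5. The part of T-cell RNA in the haplodeficient Ccl5 level was not tested. Cells with Ccl5 were deeper than those without in the control (medians of 19380 and 11318 UMIs), and the part of depth in this split was not tested.

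**Figure D4:**
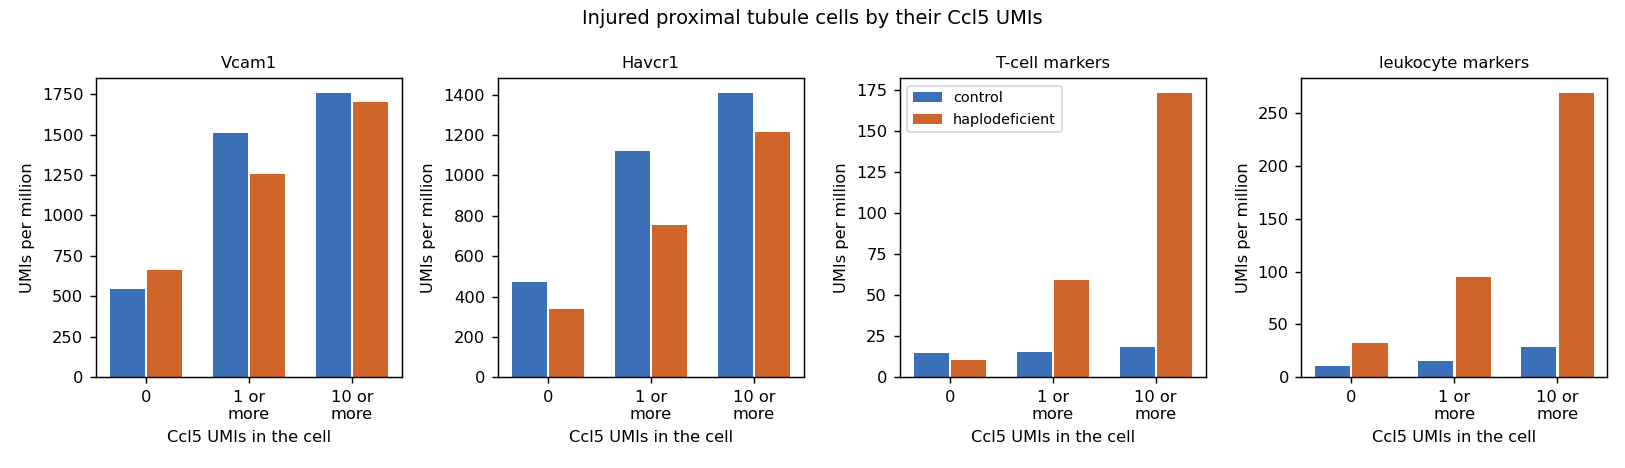
Summed levels (CPM) of Vcam1, Havcr1, 8 T-cell markers and 7 leukocyte markers in injured proximal tubule cells split by the number of Ccl5 UMIs in the cell, by library. Vcam1 and Havcr1 are higher in cells with Ccl5 in both libraries, while T-cell markers reach 173 CPM in haplodeficient cells with 10 or more Ccl5 UMIs and 18.6 CPM in such control cells.

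In 2 other epithelial groups Ccl5 was called higher in the haplodeficient library. In connecting tubule or principal cells it stood at 2.15 CPM (14 UMIs) and 120 CPM (864 UMIs), a ratio of 55.7 (33.0 to 102), where 2.14% of genes were called. Of the 864 UMIs, 803 were in 9 of 637 cells, whose T-cell markers summed to 160 CPM against 7.38 CPM in cells without Ccl5. In the Mmp7-led epithelial cluster it stood at 15.3 and 133 CPM (ratio 8.70, 6.85 to 11.2; 1.14% called), with 500 of 516 UMIs in 5 of 265 cells and T-cell markers at 110 CPM against 3.19 CPM. Whether these few cells were epithelium with T-cell RNA was not tested. In endothelium, the cells that the Cre driver targets, Ccl3 stood at 0.823 and 2.83 CPM, Ccl4 at 2.88 and 24.7 CPM (ratio 8.57, 4.04 to 21.7) and Ccl5 at 2.06 and 18.3 CPM (8.88, 3.68 to 28.0), all below the level at which a call could be made. The UMIs expected from free RNA were 306%, 85.9% and 121% of those seen in haplodeficient endothelium. Of its 131 haplodeficient Ccl4 UMIs, 113 were in the endothelial cluster led by Cldn5 (174 and 336 cells), at 0.984 CPM from 1 UMI and 60.3 CPM (ratio 61.3, 10.8 to 2442).

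Ccr1 was taken to mark cells that can receive CCL3 and CCL5 through CCR1. Cells that receive the ligands through receptors not analysed here are not covered. Ccr1 was a myeloid gene with a clear peak in neutrophils. Control neutrophils held it at 800 CPM (669 to 948) and haplodeficient neutrophils at 572 CPM (529 to 616), a ratio of 0.715 (0.592 to 0.868). The other receiving classes lay far below and close together: macrophages at 99.9 and 78.2 CPM (0.783, 0.605 to 1.01), type 2 dendritic cells at 95.7 and 85.1 CPM (0.889, 0.681 to 1.17), the Mki67-led cluster at 81.3 and 69.5 CPM, Gpnmb-positive macrophages at 74.1 and 48.8 CPM (0.659, 0.532 to 0.820) and the Cd83-led cluster at 66.6 and 50.5 CPM (0.758, 0.561 to 1.03). In the control the intervals of these 5 overlapped with their neighbours in order. Classical monocytes stood at 108 CPM in 64 haplodeficient cells. Ccr1 was lower in the haplodeficient library in 6 of 6 classes in which it could be read, and no class was called. With each library clustered on its own, the log2 ratio in type 2 dendritic cells turned to 0.20, and with doublets kept that in the Mki67-led cluster turned to 0.06. No test of these 6 differences was possible, and they share the same 2 libraries. CD8 T cells and NK cells had no Ccr1 UMI in either library.

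The share of Ccr1 UMIs by receiving class differed between the libraries. Macrophages held 22.0% (18.9 to 25.4) of 654 control Ccr1 UMIs, neutrophils 20.2% (17.2 to 23.5), Gpnmb-positive macrophages 19.9% and type 2 dendritic cells 14.2%. In the haplodeficient library neutrophils held 45.4% (42.8 to 47.9) of 1490 UMIs, Gpnmb-positive macrophages 17.2%, type 2 dendritic cells 9.87% and macrophages 7.32%. Neutrophils thus held the largest share of both Ccl3 and Ccr1 in the haplodeficient library, among the classes as divided here. For Ccl3 this rests on the division of macrophages from the Cd83-led cluster, which depended on the clustering. Neutrophils held 3348 haplodeficient Ccl3 UMIs, the Cd83-led cluster 2575, Gpnmb-positive macrophages 1528 and macrophages 1460. In neutrophils neither Ccl3 nor Ccr1 was past the size rule (log2 0.59 and -0.48). Within neutrophils Ccr1 ran against the ligands, at 241 and 319 CPM in the Il1f9-led cluster, 906 and 574 CPM in the Il1r2-led cluster and 939 and 762 CPM in the Retnlg-led cluster. After thinning, 48 of 96 control neutrophils (39.6% to 60.4%) and 40.8% (36.7 to 45.0) of haplodeficient ones had a Ccr1 UMI, which overlap, against 0.0365% of control proximal tubule cells.

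In all, 39 pairs of gene and class could be read in 16 classes, and 18 of them were past the size rule, against 3.00% of 44656 gene and class pairs over all genes. Of the 18, 14 were higher and 4 lower in the haplodeficient library. Ccl4 and Ccl5 gave 13 of the 14 higher calls, and Ccr1 none. The mean over both libraries set which pairs could be read, so some entered only through the library where they were high. Ccl5 in connecting tubule or principal cells (2.15 and 120 CPM) is an example, and the same filter was applied to all genes. The 18 pairs share 2 libraries and neighbouring classes, and the 4 genes were taken up with earlier results known. This count is therefore a description.

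**Figure D5:**
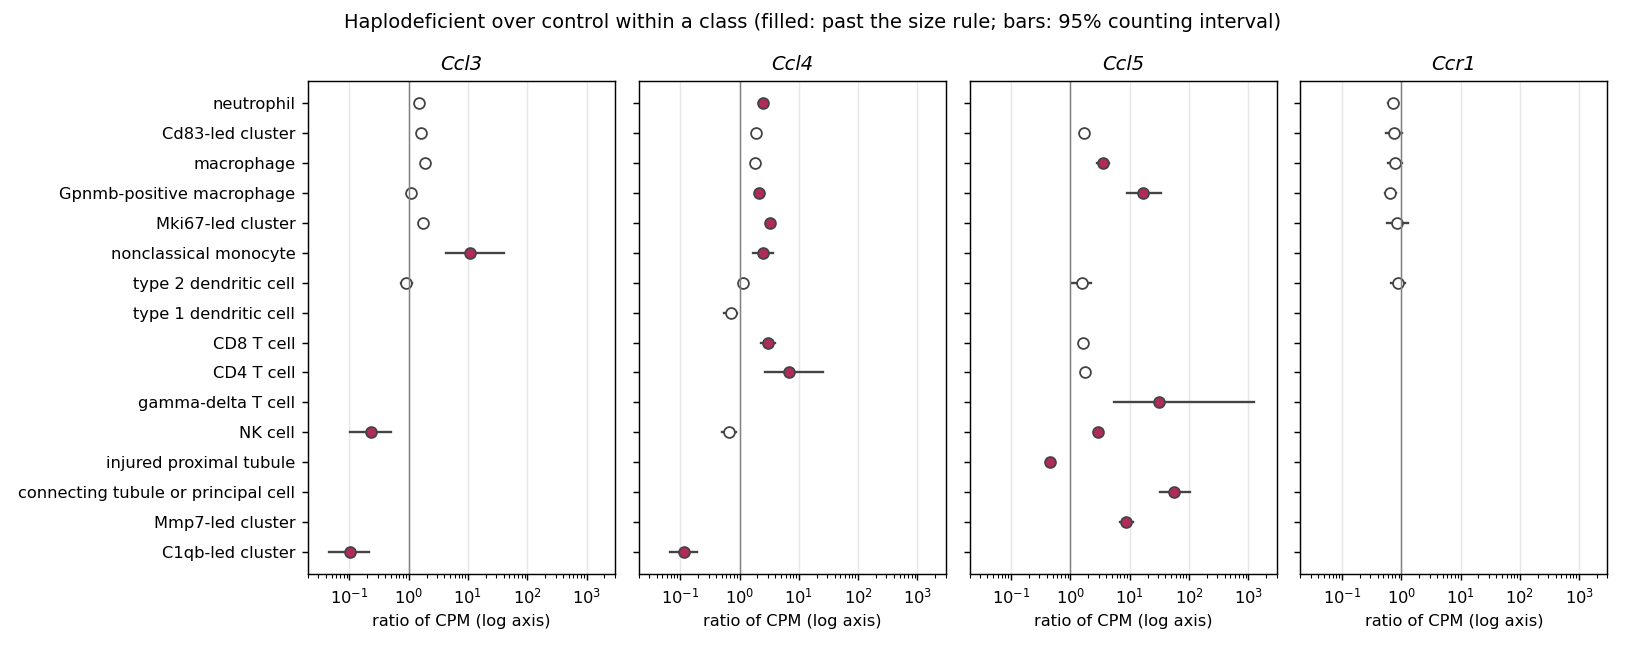
Ratio of CPM, haplodeficient over control (log axis), for each gene and class that could be read, with 95% counting intervals as bars. Filled points are past the size rule. Ccr1 points lie below 1 in 6 of 6 classes (type 2 dendritic cells turn above 1 with each library clustered on its own, and the Mki67-led cluster with doublets kept), and 10 of the 11 Ccl5 points lie above 1, the exception being the injured proximal tubule. Ccl5 in the C1qb-led cluster has no control UMI and is not drawn.

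Other ligands of the receptor moved apart from one another. Ccl7 was called higher in macrophages (500 and 1406 CPM), the Cd83-led cluster (401 and 862 CPM), the Mki67-led cluster (417 CPM in haplodeficient cells, from 12 UMIs in control cells) and the injured proximal tubule (36.0 and 98.2 CPM). Ccl6 was called lower in macrophages (709 and 349 CPM) and was at 1549 and 787 CPM in Gpnmb-positive macrophages, without a call. Ccl9 was lower without a call in macrophages (266 and 151 CPM) and the Cd83-led cluster (237 and 151 CPM), while Ccl8 stood at 1457 and 2610 CPM in macrophages. Ccrl2, an atypical receptor that presents rather than signals, was highest in neutrophils (3477 and 3097 CPM) and was called lower in macrophages (413 and 152 CPM). The decoy receptor Ackr2 stood at 9.06 and 9.04 CPM in endothelium. Of the 38 related genes, which include signalling partners of the receptor and regulators of the ligand genes, none of 20 measurable was called in CD8 T cells, 1 of 14 in NK cells (Irf1, an interferon-response factor, 29.0 and 160 CPM) and none of 21 in neutrophils, beside 4.07%, 4.05% and 4.93% of all genes tested. Their median log2 ratios there were 0.13, 0.35 and -0.09, beside -0.04, 0.14 and -0.08 over all genes tested. In macrophages 2 of 23 were called higher and 3 lower, beside 2.23% of all genes called in either direction, with a median of -0.02 beside 0.01. Related genes were not recomputed under the other clusterings, on which the division of macrophages from the Cd83-led cluster depended.

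The genes most like each one in pattern were read over 59 class and library profiles among 9587 genes, as a description, since profiles share 2 libraries. Nearest to Ccl3 were Fcgr3 (Pearson r 0.90), an Fc receptor gene, and Osm (0.90), which encodes the cytokine oncostatin M, and its r with Ccl4 was 0.90. Nearest to Ccl4 were Arrb2 (0.92), a β-arrestin gene, and Vav1 (0.91). Nearest to Ccl5 were Nkg7 (0.85), a cytotoxic granule gene, Fasl (0.84), Padi2 (0.84), Xcl1 (0.83) and Gzmb (0.83), the granzyme B gene. Nearest to Ccr1 were Osm (0.93), Cd33 (0.93) and Clec5a (0.92), myeloid surface or cytokine genes. Ccl5 had an r of 0.22 with Ccl3, 0.45 with Ccl4 and -0.07 with Ccr1, so its pattern over cell types was apart from the other 3.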

How the data were processed

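Single-cell RNA was captured with 10x Chromium 3′ v3.1 kits, per the labels' protocols. The deposited files are raw Cell Ranger matrices of UMI counts per gene and barcode, aligned to mm10, per the submitters' processing notes. The authors' own cell filter, cell types and version are not given in the sources used here. Barcodes with at least 500 UMIs, 200 genes and at most 50% mitochondrial UMIs were kept, and the highest Scrublet scores were removed as doublets at 0.8% per 1000 cells (scanpy 1.11.5). Cells of both libraries were clustered together (2000 variable genes, 30 components, 15 neighbours, Leiden resolution 1, leidenalg 0.10.2) and leukocytes again. UMI counts were summed by class and library and divided by the class total (CPM). Intervals are exact Poisson for levels, exact Clopper-Pearson for shares and conditional binomial for ratios. Ratios of classes need at least 20 cells per library, while ratios of single clusters had no such minimum. The size rule was tested on simulated counts with Poisson error only, so that test does not cover differences between mice or libraries. Total depth was 134190236 and 114668145 UMIs over all barcodes, of which 106926054 and 93610831 were in the cells used. Related genes are named where they are ligands or receptors or were called in the 3 classes with the highest summed level of the 4 genes (CD8 T cells, NK cells and neutrophils), and the 5 most similar genes were sought for each. Alternatives changed the filters, doublets, clustering, free RNA, scaling, pseudocount and low-value filter. The genes and lists were chosen with earlier results of these data known. A cell hashing library was not used here. The sequence of Ccl4 is not reported here.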

Additional observations from a re-analysis of the deposited data

How the results depend on the processing

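No paired analysis was possible because each group is 1 library. Of 18 calls, 17 were kept at Leiden resolution 2, 16 with doublets kept, 16 at a mitochondrial limit of 25%, 17 at a pseudocount of 20 CPM, 18 at 1 CPM and 18 under median-of-ratios scaling. With a UMI minimum of 1000, 13 of the 17 that could be read were kept, and with each library clustered on its own 13 of 16. Calls were gained too: Ccl5 in type 2 dendritic cells under 5 settings (resolution 2, UMI minimum of 1000, doublets kept, libraries clustered apart, 25% mitochondrial limit) and Ccl3 in the Mki67-led cluster with doublets kept. Clustering apart gave 19 calls, the gains including Ccl3 in type 2 dendritic cells, Ccl5 in the Cd83-led cluster and, turned lower, Ccl5 in CD4 T cells (-1.13) and type 2 dendritic cells (-1.14) and Ccl3 and Ccl4 in macrophages. Pooling macrophages with the Cd83-led cluster and leaving out shared barcodes (18 kept) were chosen after seeing the data. With libraries clustered apart no control cluster was named CD8 T cell. The part of this in the CD4 T-cell ratios, and the cause of the other changes, was not tested. Numbers of under 50 control cells limit Ccl3 and Ccl4 in NK cells, nonclassical monocytes and the C1qb-led cluster. The same holds for Ccl5 in NK cells, gamma-delta T cells and the C1qb-led cluster, and for Ccl4 in the Mki67-led cluster. Of these classes the C1qb-led cluster was the shallow one, at a median of 810 UMIs.

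With each library clustered on its own, where no control cluster was named CD8 T cell, the log2 ratio of Ccl4 in CD4 T cells reversed to -0.52. In macrophages Ccl3 went to -1.30 and Ccl4 to -1.35. In the Cd83-led cluster Ccl4 went to 0.73, and in both pooled Ccl3 went to 1.05 and Ccl4 to 1.34. Ccl5 in the injured proximal tubule went to -1.51. At resolution 2, Ccl3 in the Cd83-led cluster was 0.80, Ccl4 there 0.99 and pooled Ccl4 1.08. With doublets kept, Ccl4 in CD8 T cells was 2.23, Ccl5 there 0.60 and Ccl5 in the injured tubule -0.61. At the 25% mitochondrial limit Ccl5 was 1.32 in NK cells and -0.92 in the injured tubule, and with free RNA subtracted -1.32 there. In connecting tubule or principal cells Ccl5 was 5.26 at a pseudocount of 1 CPM and 2.66 at 20 CPM.

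Genes past the size rule numbered 51, 83 and 375 in the Cd83-led cluster, injured tubule and macrophages with libraries clustered apart (33, 26 and 62 as reported), and 108, 74 and 184 with a mean minimum of 10 CPM. In the Cd83-led cluster 18 passed at a pseudocount of 20 CPM.

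Shares of a gene's UMIs moved as follows. With doublets kept, the Cd83-led cluster held 28.1% of control and 21.3% of haplodeficient Ccl3, and 37.0% and 32.1% of Ccl4. Haplodeficient neutrophils then held 28.6% of Ccl3, 12.1% of Ccl4 and 42.2% of Ccr1, and control macrophages 14.5% of Ccr1. CD8 T cells held 17.97% of control and 37.1% of haplodeficient Ccl5, and the injured tubule 39.8% and 3.19%. At the 25% mitochondrial limit the Cd83-led cluster held 31.9% and 23.7% of Ccl3 and 42.6% and 35.9% of Ccl4, control CD8 T cells 21.3% of Ccl5 and the haplodeficient injured tubule 2.51%. With libraries clustered apart, the haplodeficient Cd83-led cluster held 37.4% of Ccl3 and 49.1% of Ccl4, macrophages 36.4% and 2.68% of Ccr1, the haplodeficient injured tubule 2.77% and CD8 T cells 42.7% of Ccl5, while no control cluster was named CD8 T cell (0.0%). With free RNA subtracted, the Cd83-led cluster held 41.8% and 37.7% of Ccl4, the injured tubule 45.1% and 1.82% of Ccl5 and haplodeficient CD8 T cells 43.4%. At a UMI minimum of 1000, haplodeficient shares of Ccl4 were 37.6% in the Cd83-led cluster and 12.9% in neutrophils, and control macrophages held 18.2% of Ccr1. At resolution 2 haplodeficient CD8 T cells held 40.7% of Ccl5.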
